A study of Homo sapiens with 30 samples.

Results

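Olfactory receptor (OR) genes encode the odorant-sensing G protein-coupled receptors of the nasal epithelium, and most of them stand in tandem arrays. Autosomal genes and pseudogenes with a symbol of the form OR, number, letters, number were taken from the GENCODE annotation of hg19, genes within 200 kb of each other were joined, and arrays of 3 or more were kept. This gave 51 clusters on 17 chromosomes with 755 of the 847 autosomal OR symbols, of which 384 carried no pseudogene suffix and 371 did. The clusters spanned 15.0 Mb, or 0.557% of the autosomal sequence without gaps, and ranged from 12.4 kb to 1833 kb. The 5 peak lists of the study placed 1219, 844 and 991 H3K27me3 peaks and 536 and 432 H3K9me3 peaks in them, out of 73667, 58801, 68848, 75538 and 54588 autosomal peaks. The symbols and coordinates chose the members, and no measured value did.

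The peaks came from ChIP-seq in HEK293T, a human embryonic kidney line, fixed 48 h after transfection with an antisense oligonucleotide (ASO). All cells, controls included, had received an ASO. H3K27me3 was profiled after a control ASO (NC) and after ASOs to the long noncoding RNAs LINC00641 and SETD5-AS1 (ΔLINC00641 and ΔSETD5-AS1), and H3K9me3 after NC and an ASO to LINC00662 (ΔLINC00662), each with input, in 3 replicates per group and 30 samples in all. The track headers name 1 ASO each for LINC00641 and SETD5-AS1 and a mix for LINC00662. RNA levels were not analysed here, so neither the depletion of the target nor the identity of the cells was checked. The replicates were merged before peak calling, so each list is a single measurement per condition: no value has a replicate error, no test between conditions was possible, and the intervals given are 95% Wilson intervals that cover counting error only, with neighbouring peaks counted as if independent.

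In the olfactory epithelium each sensory neuron expresses 1 OR allele from this large family, while the other OR genes are kept silent and carry H3K9me3 and H4K20me3, as known from mouse. H3K27me3 is laid down by Polycomb repressive complex 2 and is found on silent developmental genes, and H3K9me3 is laid down by SETDB1 and the SUV39H enzymes on repeats, zinc finger genes and other constitutively silent sequence. OR genes fall into class I (families 51, 52, 55 and 56), which resemble the receptors of fish and lie together on chromosome 11, and class II, which make up the rest. Family 7E consists almost wholly of pseudogenes that were copied across the genome.

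The sequences below show what lay under the strongest marks and what OR coding sequence looks like with and without them. The first pair are the 300 bases around the summit of the strongest cluster peak found in every list of a mark, from hg19, plus strand, with each CG dinucleotide in capitals.
H3K27me3, chr2:241034839-241035138, between the genes of the OR6B2 to OR5S1P cluster: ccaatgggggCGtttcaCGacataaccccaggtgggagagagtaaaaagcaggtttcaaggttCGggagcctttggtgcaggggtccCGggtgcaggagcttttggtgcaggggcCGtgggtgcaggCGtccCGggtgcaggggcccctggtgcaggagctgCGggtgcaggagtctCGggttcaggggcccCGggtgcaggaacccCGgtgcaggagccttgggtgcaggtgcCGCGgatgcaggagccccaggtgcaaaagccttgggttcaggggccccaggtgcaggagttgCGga
H3K9me3, chr16:3339769-3340068, in a coding exon of ZNF263 in the OR1F1 to OR2C1 cluster: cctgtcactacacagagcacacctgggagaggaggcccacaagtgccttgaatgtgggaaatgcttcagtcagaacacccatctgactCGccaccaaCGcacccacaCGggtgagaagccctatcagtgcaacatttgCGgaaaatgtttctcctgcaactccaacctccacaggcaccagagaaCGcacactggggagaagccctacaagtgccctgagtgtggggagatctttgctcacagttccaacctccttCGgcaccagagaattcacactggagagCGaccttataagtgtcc
Neither summit lay on an OR gene. The H3K27me3 window held 14 CG dinucleotides at 66.7% GC and stood 13531 bases from the pseudogene OR5S1P. The short unit ggtgcagg recurs through much of this window. Whether reads could be placed with certainty in this repeated sequence was not tested. The H3K9me3 window held 7 CG dinucleotides at 54.3% GC and stood 65139 bases from OR1F1. The next 4 stretches are 90 coding bases of OR genes, sense strand, around the codons of the MAYDRY motif of the family, which are in capitals. OR56A1 (class I) and OR1N2 (class II) had the most coding bases under H3K27me3 peaks in NC among motif-bearing genes of their class, OR11H7 the most under H3K9me3 peaks, and OR13G1 is the first such gene of the largest cluster with no H3K27me3 peak in NC.
OR56A1, chr11:6048509-6048598, minus strand: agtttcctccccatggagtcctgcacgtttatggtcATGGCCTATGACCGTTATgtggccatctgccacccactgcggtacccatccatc
OR1N2, chr9:125315815-125315904, plus strand: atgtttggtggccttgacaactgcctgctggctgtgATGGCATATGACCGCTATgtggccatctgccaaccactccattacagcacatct
OR11H7, chr14:20697876-20697965, plus strand: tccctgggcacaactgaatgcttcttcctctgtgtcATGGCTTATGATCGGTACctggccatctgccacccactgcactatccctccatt
OR13G1, chr1:247835948-247836037, minus strand: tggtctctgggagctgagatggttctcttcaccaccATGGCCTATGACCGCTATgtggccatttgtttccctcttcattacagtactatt
The 4 stretches shared between 48 and 58 of their 90 bases pairwise. OR56A1 had 617 of its 942 coding bases under H3K27me3 peaks in NC, OR1N2 948 of 948, and OR13G1 and OR11H7 none. OR11H7 had 569 of 942 coding bases under H3K9me3 peaks in NC and none in ΔLINC00662. The motif was found in 134 of the 385 clustered OR genes with an annotated coding exon (34.8%).

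OR clusters held more H3K27me3 peaks per length than the rest of the autosomes. In NC there were 81.5 H3K27me3 peaks per Mb of cluster against 27.4 per Mb of autosome, a ratio of 2.97, and the peaks covered 4.94% of the cluster sequence against 2.08% of the autosomes, a ratio of 2.37. ΔLINC00641 and ΔSETD5-AS1 gave density ratios of 2.58 and 2.58 and covered ratios of 2.09 and 2.15. The median fold enrichment over input was 3.3 in clusters and 3.3 over all autosomal peaks in NC, with a median of 16 against 17 fragments at the summit and a median width of 465 against 516 bp. Cluster peaks lay more often where the local input was no higher than the genome-wide level, 59.6% of them against 45.4% of autosomal peaks, and fewer reached −log10 q of 5, 22.1% against 27%. The clusters were slightly poorer in GC than the autosomes (38.9% against 41.0%), while the peaks inside them had a median GC content of 45.0% against 45.2% for all autosomal peaks.

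H3K27me3 was very uneven between clusters. In NC, 32 of the 51 clusters held a peak and 19 held none, and the 19 empty clusters contained 184 OR genes. The 5 clusters with most peaks held 56.2% of the cluster peaks, and the 11 clusters of chromosome 11 held 56.6%. Coverage was above the autosomal level in 22 of 51 clusters and in 13 of the 21 clusters of 10 or more genes. The 3 clusters with the largest covered share were OR10H2 to OR1AB1P on chromosome 19 (15838834 to 16163499, 6 genes) with 20.5%, OR9A2 to OR6W1P on chromosome 7 (142723287 to 142760682, 4 genes) with 17.0%, and OR7C1 to OR10B1P on chromosome 19 (14900072 to 15252873, 14 genes) with 15.8%.

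Among the large clusters, OR6X1 to OR8Q1P on chromosome 11 (123624288 to 124472134, 44 genes) was the most covered after OR7C1 to OR10B1P, with 187 H3K27me3 peaks over 13.3% of its sequence in NC. The OR1J1 to OR1K1 cluster on chromosome 9 had 12.7%, OR1M4P to OR7H1P on chromosome 19 had 10.9% and OR5BA1P to OR5B21 on chromosome 11 had 10.8%. OR13F1 to OR13D3P on chromosome 9 had 8.89% and OR10T2 to OR10AA1P on chromosome 1 had 8.12%. The class I cluster OR52B4 to OR52W1 (chromosome 11, 4388493 to 6221416, 102 genes), which surrounds the β-globin locus, held the most H3K27me3 peaks of any cluster, 211, over 6.58% of its sequence. The largest class II array, OR4A11P to OR5BP1P on chromosome 11 with 105 genes, had 108 peaks over 3.05%.

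Other large arrays had almost no H3K27me3 in any of the 3 lists. OR2B11 to OR14I1 on chromosome 1 (247612420 to 248845629, 56 genes, 43 of them without a pseudogene suffix) held 0 (NC), 2 (ΔLINC00641) and 3 (ΔSETD5-AS1) H3K27me3 peaks. OR2AD1P to OR2H2 on chromosome 6 (28994457 to 29558277, 24 genes), within the extended major histocompatibility complex, held 0, 0 and 1, and no H3K9me3 peak in either list. OR11H2 to OR11H4 on chromosome 14 (20181095 to 20712508, 30 genes) held none in all 3, and neither did OR4A6P to OR4C50P on chromosome 11 (11 genes). OR5BM1P to OR5K2 on chromosome 3 with 18 genes held 2, 0 and 2. These arrays had GC contents between 36.4% and 38.6%. Of the densely marked arrays, OR6X1 to OR8Q1P had 37.6% and OR13F1 to OR13D3P 36.8%, 2 picked examples. Over all clusters GC content ran from 34.3% to 48.3%, and its relation to coverage of a cluster was not tested. Among the other arrays of 10 or more genes, OR10J2P to OR10J6P had 6.21%, OR2F2 to OR2A1 5.98%, OR4B1 to OR4A44P 5.29%, OR1D5 to OR1E2 3.57%, OR9K1P to OR10AE3P 1.97%, OR5AN2P to OR10V2P 1.27% and OR11J7P to OR4N3P 0.722%.

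**Figure D1:**
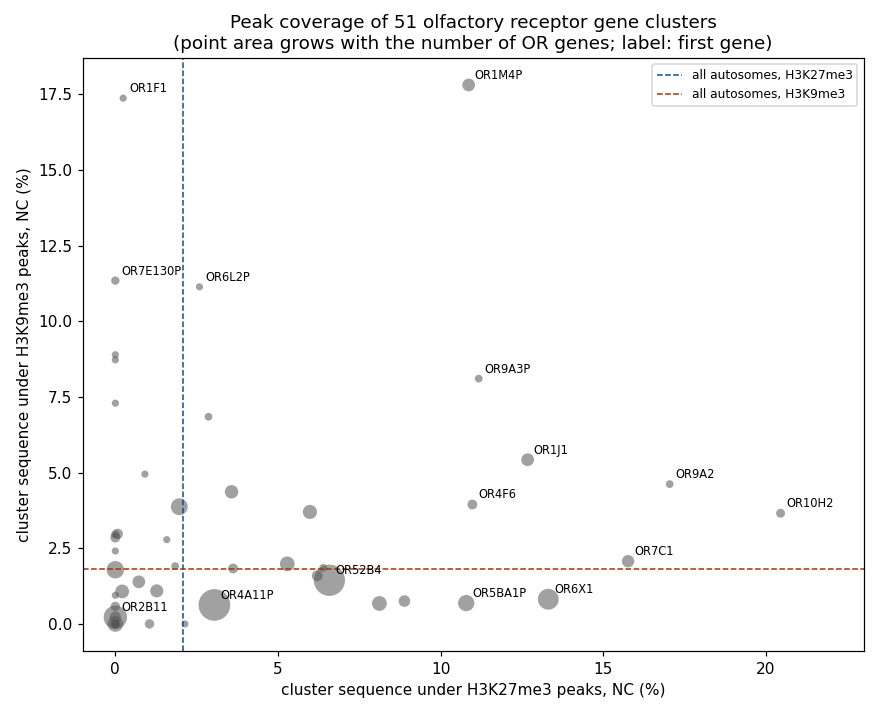
Share of each of the 51 OR clusters under H3K27me3 peaks (x axis, %) and H3K9me3 peaks (y axis, %) in the NC lists; each point is a cluster, its area grows with the number of OR genes, and the dashed lines give the shares over all autosomes (2.08% and 1.83%). OR10H2 to OR1AB1P lies farthest right at 20.5% and OR1M4P to OR7H1P highest at 17.8%.

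Within the clusters H3K27me3 peaks covered OR coding sequence more densely than the spacers. OR coding exons and short pseudogenes made up 4.59% of the cluster sequence, and 12.1% of their bases were under H3K27me3 peaks in NC, against 4.06% of the sequence between genes, 5.93% of the rest of the OR gene bodies and 6.19% of the bodies of other protein-coding genes. Some of the bodies of other genes are long models that run through the arrays. The same coding fraction had 11.5% of its bases covered in ΔLINC00641 and 10.7% in ΔSETD5-AS1, where the spacers had 2.73% and 3.18%. By number, 60.5% of the NC summits lay between genes, which made up 70.6% of the clusters, and 11.8% on OR coding exons or short pseudogenes. The coding stretches shown above are part of this fraction. H3K9me3 in NC had the same order, with 2.91% of coding exons and short pseudogenes covered against 1.90% between genes. The NC H3K27me3 cluster peaks had a median GC content of 45.0%, in clusters of 38.9%. The GC content of coding and spacer sequence was not compared, and its part in the difference was not tested.

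A H3K27me3 peak lay within 1 kb of the annotated start of 187 of the 755 clustered OR genes in NC, 24.8% (95% interval 21.8% to 28.0%), against 5.97% of all autosomal genes. ΔLINC00641 had 160 (21.2%, background 5.81%) and ΔSETD5-AS1 165 (21.9%, background 5.83%). Class I genes were marked more often than class II genes in NC, 45 of 102 (44.1%, 34.9% to 53.8%) against 142 of 653 (21.7%, 18.8% to 25.1%). All 102 clustered class I genes lie in the OR52B4 to OR52W1 cluster and fill it, so the class and the locus cannot be told apart. Genes with and without a pseudogene suffix had similar shares at their starts, with overlapping intervals, 91 of 371 (24.5%, 20.4% to 29.2%) and 96 of 384 (25%, 20.9% to 29.6%). A H3K27me3 peak anywhere in the gene body was found for 194 OR genes in NC (25.7%, 22.7% to 28.9%), with 184 and 183 after the LINC00641 and SETD5-AS1 depletions, where 9.16%, 8.85% and 9.35% of all autosomal gene bodies overlapped one. At starts, family 7E had 6 of 45 (13.3%, 6.26% to 26.2%), and the 92 OR genes outside the clusters had 4 (4.35%, 1.7% to 10.7%).

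By bases of gene body under H3K27me3 in NC, the leading genes were OR51B5 with 26067 bp, OR9Q1 with 23391 bp, OR3A2 with 10682 bp, OR10H1 with 6058 bp, OR8B8 with 5879 bp and OR10H5 with 4806 bp. The first 3 are long transcript models of 202209, 157736 and 110141 bp, so length put them first, and the OR51B5 model runs through other OR genes and beside the globin genes. OR51B5 had 14128 bp in ΔLINC00641 and 15470 bp in ΔSETD5-AS1. OR10H1 had 5960 and 4726 bp, OR8B8 3912 and 2914 bp, and OR10H5 4683 and 4786 bp. OR9Q1 had 15764 and 14605 bp, and OR3A2 10501 and 11600 bp.

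Coding exons were covered over at least 50% of their bases by H3K27me3 in all 3 lists for 15 of the 385 clustered OR genes with a coding exon. The set is named here after its values were seen, and the same share over all autosomal genes was not computed. OR1N1 on chromosome 9 was covered over 100%, 98.4% and 96.0% of its 933 coding bases in NC, ΔLINC00641 and ΔSETD5-AS1, and its neighbours OR1N2 (100%, 92.0% and 76.4%) and OR1L1 (98.0%, 94.2% and 73.4%) followed. OR8B12 had 88.1%, 77.3% and 100%, and OR10H2 had 100%, 86.0% and 71.5%. The others were OR1I1, OR8B8, OR56A1, OR10G4, OR9I1, OR9G1, OR52E8, OR10S1, OR10D3 and OR7A17. OR56A1 and OR52E8 were the class I members of the set. A pseudogene suffix was absent from all 15 symbols, which follows in part from the choice, since 13 of the 371 genes with the suffix had an annotated coding exon.

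Other protein-coding genes inside the clusters numbered 71, and 31 of them (43.7%, 32.7% to 55.2%) had a H3K27me3 peak in their body in NC, against 11.9% of autosomal protein-coding genes. After the LINC00641 and SETD5-AS1 depletions 26 and 29 did, against 12.1% and 12.2%. Some of the 71 are long, overlapping models that run through OR arrays, so 1 peak can count for several genes. In the class I cluster the models of HBG2 (252418 bp), HBE1 (237308 bp) and TRIM5 (275425 bp) held 47, 46 and 46 NC peaks. OR4M2-OT1 and LINC02203 have almost the same coordinates. These shares and intervals thus do not describe independent genes. For H3K9me3 26 had a body peak in each list (36.6%, 26.4% to 48.2%), against 31.8% in NC and 27.4% in ΔLINC00662. In the class I cluster the fetal globin gene HBG1 had 47.5%, 0% and 24.7% of its 1589 bp under H3K27me3 in the NC, ΔLINC00641 and ΔSETD5-AS1 lists. In the OR7C1 cluster CASP14, an epidermal caspase, had 49.0%, 62.0% and 48.1%, and the glutamate transporter gene SLC1A6 had 19.1%, 14.8% and 18.9%. In the OR10H2 cluster CYP4F2 and CYP4F11, fatty acid hydroxylases, had 29.5% and 27.4%, then 23.7% and 35.9%, and 34.6% and 34.7% in the 3 lists in the same order. These genes were picked for their values.

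H3K9me3 was close to the autosomal level over the clusters as a whole. In NC there were 35.8 H3K9me3 peaks per Mb against 28.1 per Mb of autosome, a ratio of 1.27, and 2.17% of the sequence was covered against 1.83%, a ratio of 1.19. The covered ratio was 0.935 when only symbols with no pseudogene suffix built the clusters, so its direction depends on that choice. In ΔLINC00662 the density ratio was 1.42 and the covered ratio 1.37. A H3K9me3 peak occurred in 42 of the 51 clusters in NC and in 44 in ΔLINC00662, against 32 for H3K27me3 in NC.

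Small clusters carried more H3K9me3 than large ones. The 30 clusters of 3 to 9 genes had 4.31% of their sequence under H3K9me3 in NC, 2.36 times the autosomal share, and the 21 clusters of 10 or more genes had 1.67%, 0.913 times. For H3K27me3 the values were 4.11% and 5.14%. The 12 clusters made of family 7E alone had 3.60% under H3K9me3 and 0.378% under H3K27me3, where 10 of the 12 held no H3K27me3 peak. The 11 clusters of chromosome 11 had 1.05% under H3K9me3, 0.575 times the autosomal share, and 5.98% under H3K27me3.

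The 3 clusters with the largest H3K9me3 share in NC were OR1M4P to OR7H1P on chromosome 19 (9193788 to 9390045, 15 genes) with 17.8%, OR1F1 to OR2C1 on chromosome 16 (3238204 to 3407306, 3 genes) with 17.4%, and OR7E130P to OR7E97P on chromosome 3 (125422193 to 125466941, 5 genes) with 11.3%. In ΔLINC00662 these had 18.6%, 7.84% and 5.86%. The first 2 also hold zinc finger genes, the class of genes best known for H3K9me3 over the exons that encode their fingers. The 2 strongest H3K9me3 cluster peaks in NC lay in ZNF263 (chr16:3337936-3342632, 6.85-fold over input, 61 fragments at the summit) and ZNF317 (chr19:9255684-9256597, 6.52-fold, 58 fragments), and the 2 strongest in ΔLINC00662 both lay in ZNF317.

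Of the 5 ZNF genes inside OR clusters, 4 carried H3K9me3 peaks in both lists and none carried H3K27me3 in any list. Of autosomal protein-coding gene bodies, 31.8% (NC) and 27.4% (ΔLINC00662) overlapped a H3K9me3 peak. For H3K27me3 the shares were 11.9%, 12.1% and 12.2% in NC, ΔLINC00641 and ΔSETD5-AS1, so none of 5 is not far from them. ZNF200, ZNF263 and ZNF75A lie together in the OR1F1 to OR2C1 cluster and are not independent. The bodies of the 5 ZNF genes, 82.7 kb in all, were 45.7% covered by H3K9me3 in NC and 26.4% in ΔLINC00662. ZNF317 had 68.7% and 47.8%, ZNF75A 60.4% and 14.4%, ZNF263 47.0% and 31.3%, and ZNF200 38.3% and 23%. With the ZNF bodies left out, 1.93% of the cluster sequence was under H3K9me3 in NC, 1.05 times the autosomal share, and 1.37% in ΔLINC00662, 1.24 times. The ZNF genes were examined after the strongest peaks had been seen.

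H3K9me3 at OR gene starts was near the share of all genes. A peak lay within 1 kb of 45 of 755 OR starts in NC, 5.96% (4.48% to 7.88%), against 7.01% of all autosomal genes, and of 47 in ΔLINC00662, 6.23% against 5.96%. Genes with a pseudogene suffix had 31 of 371 (8.36%, 5.95% to 11.6%) and genes without it 14 of 384 (3.65%, 2.18% to 6.03%) in NC. In ΔLINC00662 these were 27 and 20. Family 7E had 8 of 45 (17.8%, 9.29% to 31.3%) in NC and 9 in ΔLINC00662, the highest share of the kinds examined. In the gene body, 65 OR genes had a H3K9me3 peak in NC (8.61%, 6.81% to 10.8%) and 59 in ΔLINC00662 (7.81%), where 20.1% and 17.4% of all autosomal gene bodies did. OR genes are short, with a median of 951 bp against 3347 bp for all autosomal genes. Among genes of 500 to 2000 bp, a limit set after the values were seen, 29 of 520 OR genes had a H3K9me3 peak in the body in NC (5.58%, 3.91% to 7.89%) against 6.41% of autosomal genes, and 26 did in ΔLINC00662 (5%) against 5.46%. For H3K27me3 in NC 108 of the 520 did (20.8%, 17.5% to 24.5%), against 5.22%, and in ΔLINC00641 and ΔSETD5-AS1 103 (19.8%) and 96 (18.5%) did, against 5.05% and 5.19%. OR coding exons and short pseudogenes had 2.91% of their bases under H3K9me3 in NC and 2.42% in ΔLINC00662, against 1.90% and 1.36% between genes and 1.83% of the autosomes in NC.

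By bases of gene body under H3K9me3 in NC the leading genes were OR3A2 with 5931 bp, OR51B5 with 4790 bp, OR1F1 with 3099 bp, OR1B1 with 3009 bp, OR4N2 with 2048 bp and OR7D2 with 1613 bp. In ΔLINC00662 they had 3035, 2367, 467, 2251, 1950 and 1940 bp. OR3A2, OR51B5 and OR4N2 are again long models. Coding exons covered over at least 50% in both lists belonged to OR1B1 (87.9% and 92.9%), OR7D2 (75.4% and 95.8%), OR2A12 (69.6% and 60.3%) and OR10H4 (51.9% and 71.7%), named after their values were seen. They were 4 of the 385 clustered OR genes with a coding exon, and the share over all autosomal genes was not computed.

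**Figure D2:**
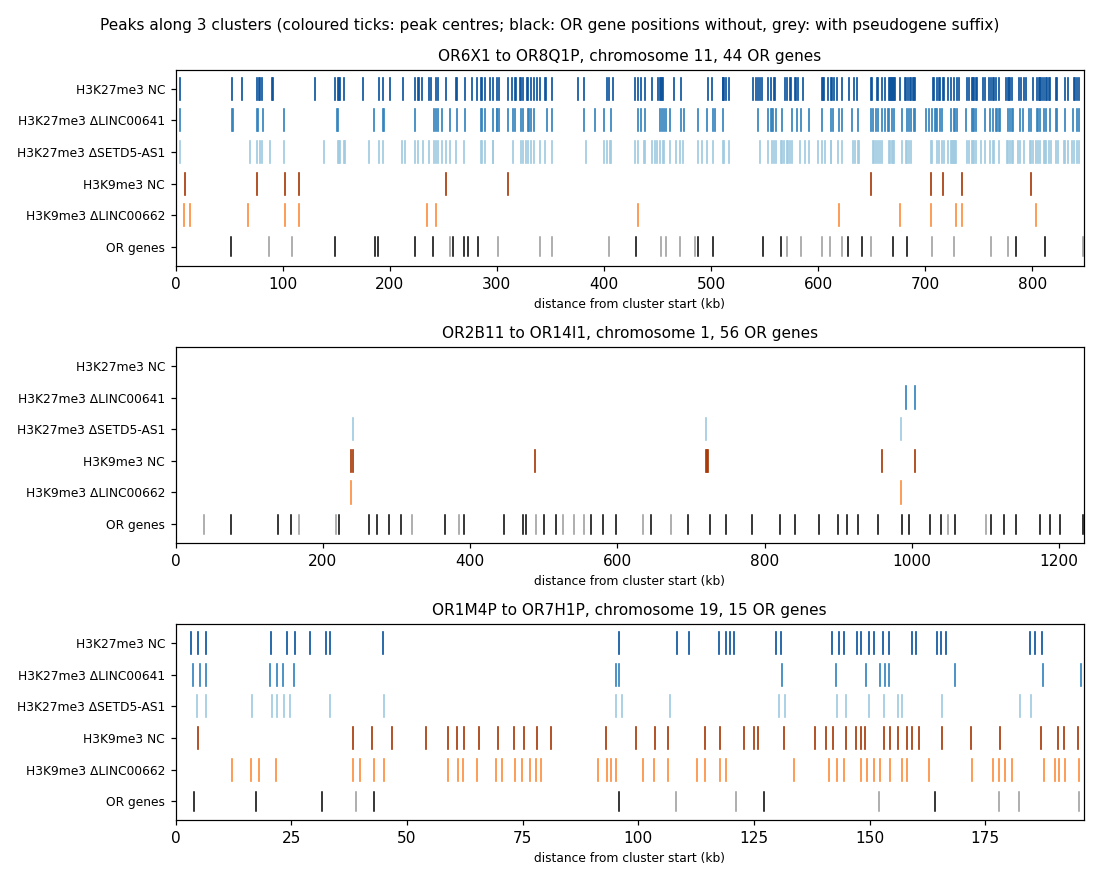
Peak centres (coloured ticks, 1 row per list) and OR genes (black without, grey with a pseudogene suffix) along 3 clusters, by distance from the cluster start in kb. The OR6X1 to OR8Q1P cluster carries 187 H3K27me3 and 11 H3K9me3 peaks in NC, the OR2B11 to OR14I1 cluster 0 and 8, and the OR1M4P to OR7H1P cluster 36 and 44, spread along its whole length.

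Both marks occurred in 30 clusters in NC, H3K27me3 alone in 2, H3K9me3 alone in 12 and neither in 7. H3K27me3 covered more sequence than H3K9me3 in 20 clusters and less in 24. Inside the clusters 38537 bp lay under peaks of both marks, which was 5.21% of the H3K27me3 bases and 11.9% of the H3K9me3 bases. Over all autosomes the shared bases were 5.79% and 6.61% of the marks. Of the 755 clustered OR genes, 31 (4.11%, 2.91% to 5.77%) had bases of their body under both marks, against 2.25% of all autosomal genes. In NC H3K27me3 covered 4.94% of the cluster sequence and 2.08% of the autosomes. The shared bases and gene shares were not adjusted for this coverage, so more overlap than coverage alone gives was not tested. The 6 OR genes with most bases under both marks were OR51B5 with 1772 bp, OR3A2 with 1468 bp, OR1B1 with 1388 bp, OR1M1 with 949 bp, OR9A4 with 812 bp and OR9A2 with 762 bp. OR9A2 is a short model of 933 bp, so most of it lay under both marks.

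H3K27me3 coverage was higher inside the cluster edges than outside them. In NC the covered share was 1.15% at 500 to 400 kb outside an edge, 2.80% in the last 100 kb outside, 4.17% in the first 50 kb inside and 6.06% at 50 to 100 kb inside. ΔLINC00641 and ΔSETD5-AS1 had 4.57% and 5.09% at 50 to 100 kb inside. H3K9me3 in NC was 2.89% in the last 100 kb outside, 3.01% in the first 50 kb inside and 4.04% at 50 to 100 kb, and was lower farther in, with 1.80% at 100 to 200 kb, 0.934% at 200 to 400 kb and 0.567% beyond 400 kb. The inner intervals come from fewer clusters, 31 at 50 to 100 kb, 22 at 100 to 200 kb, 13 at 200 to 400 kb and 4 beyond, so depth inside a cluster and cluster size cannot be told apart. Coverage exceeded that of the cluster's own 500 kb flanks in 25 of 51 clusters for H3K27me3 and in 24 of 51 for H3K9me3 in NC. Only 41 clusters had a H3K27me3 peak in the cluster or its flanks, where all 51 had a H3K9me3 peak. The clusters without one could not exceed their flanks.

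**Figure D3:**
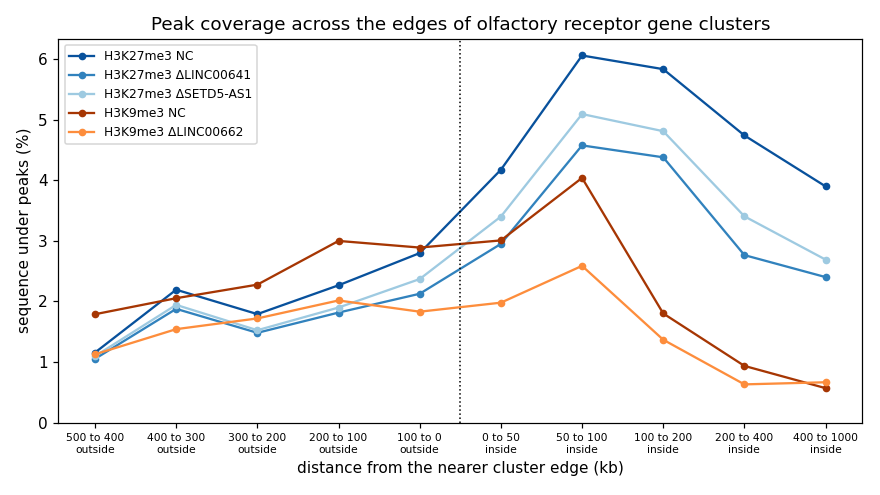
Share of sequence under peaks (y axis, %) by distance from the nearer cluster edge (x axis, kb), for the 5 lists; the dotted line marks the edge. The H3K27me3 NC line is at 2.80% just outside and 6.06% at 50 to 100 kb inside, and the H3K9me3 NC line ends at 0.567% in the innermost interval.

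Other gene families arranged in arrays, joined by the same rule, differed from the OR clusters. The 13 ZNF clusters of chromosome 19 had 0.522% of their sequence under H3K27me3 and 21.5% under H3K9me3 in NC, the opposite order to the OR clusters. The protocadherin cluster had 2.99% and 24.0%, and the 9 keratin clusters 2.01% and 2.08%. Of these sets the OR clusters had the largest H3K27me3 share.

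The genes through which olfactory neurons read out and regulate ORs were examined as a list of 23. In NC 4 of the 23 (17.4%, 6.98% to 37.1%) had a H3K27me3 peak within 1 kb of the start (6.78% of autosomal protein-coding genes did) and none had a H3K9me3 peak there (5.37%), nor in ΔLINC00662 (4.30%). The 4 were the receptor transport factor REEP1, the phosphodiesterase PDE1C, the exchanger SLC24A4 and the regulator LHX2. ΔLINC00641 and ΔSETD5-AS1 each had 4, PDE1C, SLC24A4, LHX2 and EBF3, against 7.15% and 6.55% of protein-coding genes. No peak lay in or at the start of OMP, CNGA4, CNGB1, RTP1, RTP2, GNG13, STOML3, EMX2, ATF5, LDB1 or PDE4A in any list. Among other chemosensory families, 4 of 31 bitter taste receptor genes (TAS2R) and none of 9 trace amine receptor genes (TAAR) had a H3K27me3 peak at the start in NC. These were 12.9% and 0%, against 5.97% of all autosomal genes. Of the MS4A genes, a family that is not chemosensory throughout, 7 of 17 did (41.2%). The MS4A genes lie together on chromosome 11, and models such as MS4A6E, MS4A7 and MS4A14 overlap, so they are not independent. The vomeronasal receptor family VN1R had 4 of 64 with H3K27me3 (6.25%, against the same 5.97%) and 14 of 64 with H3K9me3 (21.9%, against 7.01%).

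Promoters of OR genes were poor in CG dinucleotides. Of the clustered OR symbols, 295 were in a RefSeq table (GRCh38.p14) of 300 bases around annotated starts, with a median of 1 CG and 37.7% GC, against 14 CG and 58.3% GC over all 27305 promoters in it. OR promoters with a H3K27me3 start peak in NC had a median of 1 CG and 40.3% GC (71 genes), and those without had 1 CG and 37% GC (224 genes). The homeodomain core TAATTA, its own reverse complement, was in 22.4% of the OR promoters and 4.98% of all promoters. Among OR promoters with a H3K27me3 start peak in NC 14.1% (10 of 71) held TAATTA, and 25% (56 of 224) of those without. TAATTA has no G or C, and in both comparisons the group with the larger share had the lower GC content. Whether these shares exceed what base composition gives was not tested. The EBF motif, also scored, was in 3 of the 295 OR promoters and 329 of all 27305. Those 3 were among the 71 with a start peak, and none among the 224 without.

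After LINC00641 depletion the clusters held fewer H3K27me3 peaks than in NC, and by a larger factor than the autosomes did. There were 844 peaks against 1219, a ratio of 0.692, where all autosomes gave 0.798, and the covered bases had a ratio of 0.699 against 0.794. Of the NC cluster peaks 520 (42.7%, 39.9% to 45.5%) overlapped a ΔLINC00641 peak by at least 1 bp, against 51.6% of all autosomal NC peaks. New peaks were 328 of 844 (38.9%, 35.6% to 42.2%), against 34.3%. For the 419 peaks that paired 1 to 1 the median log2 ratio of fold enrichment was 0.021, against 0.0053 over the autosomes, so the peaks called in both lists were of like height, and 48.9% of the pairs were lower in ΔLINC00641, against 49.2%.

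After SETD5-AS1 depletion the ratio was 0.813 in the clusters (991 against 1219 peaks) and 0.935 over the autosomes. Of the NC cluster peaks 539 (44.2%, 41.5% to 47.0%) were found again, against 55% of the autosomal peaks, and 445 of 991 (44.9%, 41.8% to 48.0%) were new, against 39.5%. The median log2 ratio over 437 pairs was -0.058, against -0.076 over the autosomes, with 56.1% of the pairs lower, against 57.5%. This comparison and the one with ΔLINC00641 use the same NC list, so a low or high number there enters both.

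After LINC00662 depletion the number of H3K9me3 peaks in the clusters was 432 against 536, a ratio of 0.806, where all autosomes gave 0.723. When equal numbers of the strongest autosomal peaks were taken from each list the ratio was 1.13, so its direction depends on the number of peaks called. Of the NC cluster peaks 199 (37.1%, 33.1% to 41.3%) were found again, against 38.0%, and 230 of 432 (53.2%, 48.5% to 57.9%) were new, against 44.7%. The 177 pairs had a median log2 ratio of 0.017, against 0.026, with 48.0% lower, against 47.7%.

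**Figure D4:**
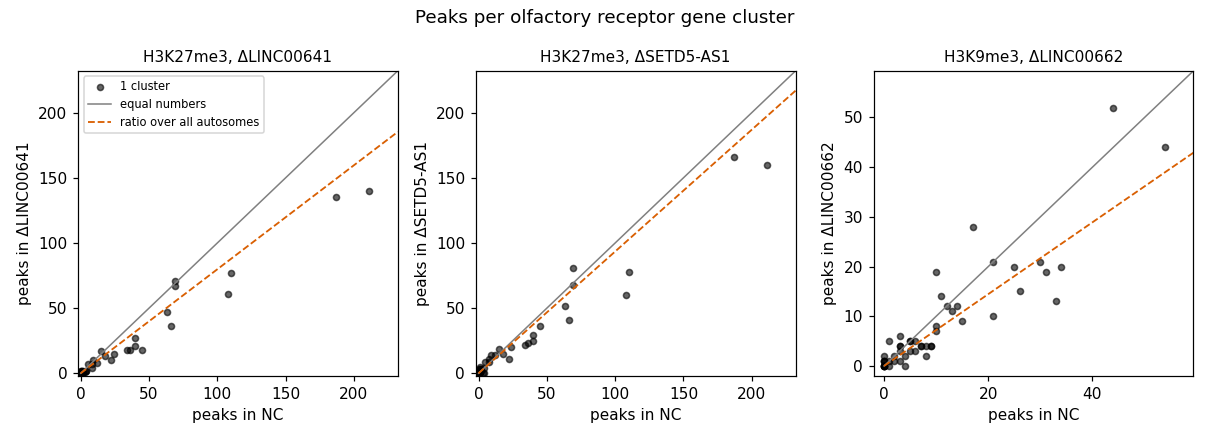
Number of peaks per OR cluster in NC (x axis) and in the depleted cells (y axis), 1 point per cluster and 1 panel per comparison; the grey line marks equal numbers and the dashed line the ratio over all autosomes (0.798, 0.935 and 0.723). The cluster farthest right, OR52B4 to OR52W1, lies under the dashed line for both H3K27me3 comparisons (140 and 160 against 211 peaks).

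Strong peaks were found again more often than weak ones. Of the 270 NC H3K27me3 cluster peaks with −log10 q of 5 or more, 191 (70.7%, 65.1% to 75.8%) were present in ΔLINC00641 and 187 (69.3%, 63.5% to 74.5%) in ΔSETD5-AS1, where 77.7% and 79.2% of the autosomal peaks of that strength were. Of those with −log10 q of 2 to 5, 36% and 37.8% were present, against 43.6% and 47.6%. For H3K9me3, 95 of 181 strong NC cluster peaks (52.5%, 45.2% to 59.6%) were present in ΔLINC00662, against 55.1%. In NC 22.1% of the H3K27me3 and 33.8% of the H3K9me3 cluster peaks reached −log10 q of 5, against 27% and 36.6% of all autosomal peaks, so most peaks were weak in the lists as a whole.

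The difference between lists tracked the base composition of the peaks. With autosomal peaks split into 5 equal groups by GC content, the ratio of ΔLINC00641 to NC cluster peaks was 0.287 in the lowest group and 1.05 in the highest, and over the autosomes 0.417 and 1.18. The cluster ratio was below the autosomal ratio in all 5 groups for ΔLINC00641 and for ΔSETD5-AS1, where it was 0.460 in the lowest and 1.03 in the highest group against 0.617 and 1.12. For ΔLINC00662 it was 0.195 and 1.53 against 0.289 and 1.30. Input moved with it as well: cluster peaks whose local input was at the genome-wide level had ratios of 0.523 (ΔLINC00641), 0.704 (ΔSETD5-AS1) and 0.491 (ΔLINC00662), and those above it 0.943, 0.974 and 0.958. Over the autosomes the same split gave 0.577, 0.857 and 0.392 at the genome-wide level and 0.982, 0.999 and 0.880 above it. The split was thus present across the autosomes, with cluster ratios below the autosomal ones for ΔLINC00641 and ΔSETD5-AS1 and above them for ΔLINC00662 on both sides. The genome-wide input level, scaled to the ChIP depth, for the H3K27me3 lists was 3.85 fragments (NC), 3.78 (ΔLINC00641) and 4.43 (ΔSETD5-AS1), and 4.29 in NC and 3.50 in ΔLINC00662 for H3K9me3. The part of GC content, input and depth in the lower numbers was not tested.

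**Figure D5:**
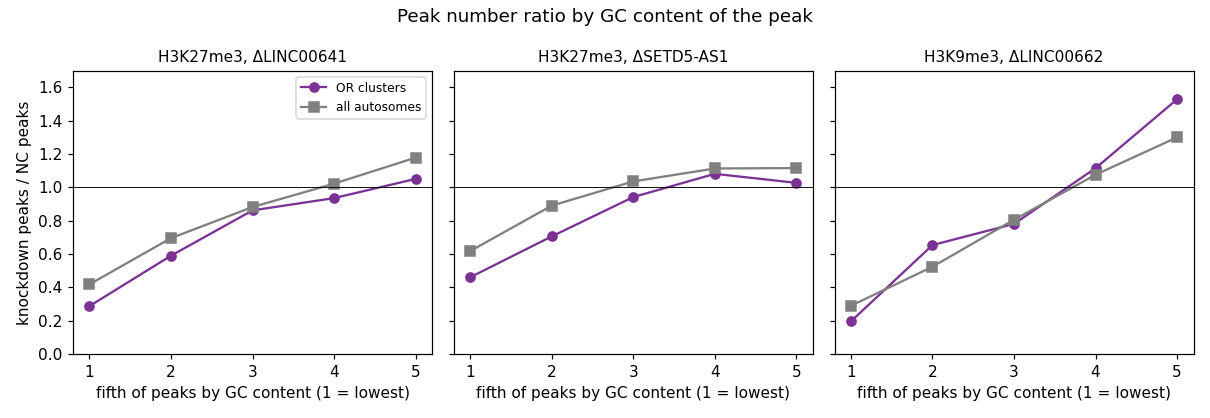
Number of peaks in depleted cells divided by the number in NC (y axis) for 5 groups of peaks of rising GC content (x axis, 1 is the lowest), in OR clusters (purple) and over all autosomes (grey), for the 3 comparisons. Both lines climb with GC content in every panel apart from the highest ΔSETD5-AS1 cluster group, from 0.287 to 1.05 for OR clusters in the ΔLINC00641 panel.

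Individual clusters differed in these ratios. Over all 51 clusters, 24 had fewer H3K27me3 peaks in ΔLINC00641 than in NC and 9 had more, and by covered sequence 26 were lower and 10 higher. For ΔSETD5-AS1 the tally was near even, with fewer peaks in 17 clusters and more in 16, and less sequence covered in 17 and more in 19. Of the 15 clusters with at least 10 genes and at least 10 H3K27me3 peaks in NC, 14 had fewer peaks in ΔLINC00641 and 13 had fewer in ΔSETD5-AS1. The ratios to NC ran from 0.4 (OR2F2 to OR2A1, 18 against 45 peaks) to 1.13 (OR1D5 to OR1E2, 17 against 15) in ΔLINC00641, and from 0.5 (OR9K1P to OR10AE3P, 11 against 22) to 1.27 (OR1D5 to OR1E2, 19 against 15) in ΔSETD5-AS1. OR7C1 to OR10B1P had nearly equal numbers, with 69, 67 and 68 peaks, and 73.9% and 66.7% of its NC peaks were found again. OR4A11P to OR5BP1P had 108, 61 and 60, the class I cluster 211, 140 and 160, and OR6X1 to OR8Q1P 187, 135 and 166. In the 30 clusters of 3 to 9 genes there were 155, 140 and 181 H3K27me3 peaks, so that ΔSETD5-AS1 had more than NC there and fewer, 810 against 1064, in the larger clusters.

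For H3K9me3, 27 of the 51 clusters had fewer peaks in ΔLINC00662 and 12 had more, and 9 of the 14 clusters with at least 10 genes and at least 10 NC peaks had fewer. OR1D5 to OR1E2 had 13 against 33 and OR2F2 to OR2A1 15 against 26. OR5BA1P to OR5B21 had 19 against 10, OR4A11P to OR5BP1P 28 against 17 and OR1M4P to OR7H1P 52 against 44. The clusters of chromosome 11 together had 138 against 125 peaks, and those of the other chromosomes 294 against 411.

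At OR gene starts, 112 of the 187 genes with a H3K27me3 start peak in NC also had one in ΔLINC00641 (59.9%, 52.7% to 66.7%), against 75.1% of the 3656 autosomal genes with one, and 118 in ΔSETD5-AS1 (63.1%, 56% to 69.7%), against 74.0%. A start peak was present in all 3 lists for 86 of the 262 OR genes that had one in any (32.8%, 27.4% to 38.7%), against 47.4% of the 5007 autosomal genes with one in any. For H3K9me3, 19 of 45 starts (42.2%, 29.0% to 56.7%) were shared with ΔLINC00662, against 55.5%, and 19 of the 73 with one in either list had it in both, against 42.8%.

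Single peaks illustrate the range. The strongest NC H3K27me3 cluster peak with no overlap in either depletion lay at chr11:58175391-58175801, 1312 bases from OR5B3, with 5.77-fold enrichment and 27 fragments at the summit. Its nearest peak was 16757 bases away in ΔLINC00641 and 14452 in ΔSETD5-AS1. The other strong NC peaks without an overlap were chr11:56609419-56609892 for ΔLINC00641 (5.56-fold, 26 fragments, nearest peak 2508 bases away) and chr11:124203808-124204315 for ΔSETD5-AS1 (5.77-fold, 27 fragments, 2771 bases). New peaks in ΔLINC00641 were led by chr11:123864855-123865636 in the coding exon of OR10G6 (6.06-fold, 28 fragments) and chr11:124098858-124099177 (4.90-fold, 29 fragments). New peaks in ΔSETD5-AS1 were led by chr19:16042986-16043306 within CYP4F11, 321 bp wide with 89 fragments and 9.37-fold enrichment, the highest −log10 q (52.5) of all peaks in the clusters, 993 bases from the nearest NC peak, and by chr9:107395390-107395864 (5.34-fold, 28 fragments), which stood 162 bases from one.

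For H3K9me3 the strongest NC peak without an overlap in ΔLINC00662 was chr11:59352350-59353597 in OSBP (5.87-fold, 41 fragments, nearest peak 127432 bases away), followed by chr7:143715559-143716405 near OR6B1 (5.32-fold, 32 fragments). The strongest new peaks were chr7:143880297-143880835 (4.25-fold, 48 fragments) and chr7:143868023-143868719 (4.93-fold, 29 fragments), both in the OR2F2 to OR2A1 cluster. That cluster holds near-identical gene copies such as the CTAGE and OR2A genes, among which reads cannot be placed with certainty.

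Peaks that paired in both lists with −log10 q of 5 or more numbered 63 with ΔLINC00641, 47 with ΔSETD5-AS1 and 35 with ΔLINC00662. The lowest log2 ratios in ΔLINC00641 were -0.73 in SLC1A6 (5.04-fold in NC, 3.05-fold after depletion) and -0.69 on the coding exon of OR1N1 (5.77-fold and 3.57-fold), and the highest were 0.62 inside the OR51B5 model (3.95-fold and 6.06-fold) and 0.60 beside OR9A2 (3.02-fold and 4.57-fold). The summit of OR1N1 held 27 fragments in both lists, with a local input at the genome-wide level in NC and 1.81 times that level in ΔLINC00641. In SLC1A6 the fragments went from 27 to 32 and the input from 1.18 to 2.60 times the level. Beside OR9A2 the fragments went from 33 to 27 and the input from 2.66 to 1.36 times. Both ratios thus moved opposite to the fragments, while inside the OR51B5 model the fragments rose with the ratio, from 24 to 28. In ΔSETD5-AS1 the ratios ran from -0.84 and -0.54, in CYP4F2 and beside OR8B10P, to 0.63 and 0.44, in CYP4F2 again and beside OR4F6. In ΔLINC00662 they ran from -1.14 in TIGD7 (6.71-fold and 3.04-fold) and -0.71 beside OR4B2P to 0.86 on the coding exon of OR10H4 (2.63-fold and 4.77-fold) and 0.73 near OR5B3.

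The loci of the depleted RNAs were far from OR clusters apart from LINC00641. LINC00641 lies on chromosome 14 at 21668238 to 21675059, 362 kb from the OR10G3 to OR4E1 cluster and 956 kb from OR11H2 to OR11H4. Neither cluster had a H3K27me3 peak in any of the 3 lists. SETD5-AS1 on chromosome 3 lay 65957 kb from the nearest OR cluster, and LINC00662 on chromosome 19 lay 12008 kb from OR10H2 to OR1AB1P.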

How the data were processed

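ChIP-seq reads of H3K27me3 and H3K9me3 and their inputs in HEK293T cells were processed by the authors. Reads were checked with FastQC 0.11.8, trimmed with Cutadapt 3.3, aligned to hg19 with Bowtie2 2.4.2 and stripped of duplicates with GATK. The 3 replicates of each group were then merged and peaks were called with MACS2 2.2.7.1 against the merged input in paired-end mode. The deposited peak lists give each peak's position, its fold enrichment at the summit (a ratio over local input), and −log10 p and −log10 q values (the latter used as the score of peak strength), all as the authors' peak caller wrote them. The total number of reads per sample is not given in the sources used here.

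The OR clusters, the gene lists and the alternatives were chosen with earlier results of these data known. Genes came from GENCODE 44 lifted to hg19, with entries of the same symbol counted once. Sequence, GC content and gaps came from the GRCh37 assembly, which has the chromosome names and lengths of hg19. Peaks belonged to a cluster when they overlapped it by at least 1 bp. A NC peak was found again when a peak of the other list overlapped it by at least 1 bp, and a peak of the other list was new when no NC peak overlapped it. A pair was 1 peak of each list touching nothing else in the other list. The number of fragments at a summit and the local input were solved from the deposited fold enrichment and −log10 p. The number of fragments came out within 0.05 of a whole number for 99.88% to 100% of the peaks of each list and all cluster peaks. The 2 peak sequences shown came from peaks with a local input of at most 5 times the genome-wide level. The recovery and the overlap code were tested on simulated data. Named clusters were those with 10 or more OR genes and, per mark, the 3 with the largest covered share in NC. Named peaks were the 2 strongest of each list, the 2 strongest lost and new of each comparison, and the 2 lowest and 2 highest fold ratios among strong pairs. Named OR genes were the 6 with most covered bases per mark and the 6 with most bases under both. Other named genes were chosen after their values were seen and are marked so. The scripts ran under Python 3.11.15 with pysam 0.24.0, scipy 1.17.1, pandas 2.3.3 and numpy 2.4.6. Alternatives in the peak threshold, the joining distance, the overlap, the symbols and the clusters used were tried. No test was run between groups, since merging left 1 list per condition.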

Additional observations from a re-analysis of the deposited data

How the results depend on the processing

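The alternatives gave 163 values, of which 115 stayed inside the interval of the value given above, 46 left it and 2 turned direction. The interval was one of counting error. For the median log2 ratios it was instead the standard deviation of the cluster medians to either side. A change of sign inside that interval was not counted as a turn. With genes joined within 500 kb the ΔLINC00641 median log2 ratio went from 0.021 to -0.00094 in this way. The cause of these moves was not tested unless the setting itself gives it. With only peaks of −log10 q of 5 or more in both lists, the H3K27me3 density ratio to autosomes in NC was 2.44 and the covered ratio 1.84, the peak number ratio was 0.826 for ΔLINC00641 and 0.657 for ΔLINC00662, NC peaks found again were 36.3% (ΔLINC00641), 30.7% (ΔSETD5-AS1) and 22.7% (ΔLINC00662), and new peaks were 55.2%, 62.8% and 63.9%. With that limit on the peaks asked about alone, found-again shares were 70.7%, 69.3% and 52.5%, against 77.7%, 79.2% and 55.1% over all autosomes. New shares were 17%, 23.4% and 41.2%. Of all autosomal depletion peaks of that strength, 86.4%, 82.9% and 71.0% overlapped a NC peak and so were not new. For the other settings these shares and the number ratios were not computed over all autosomes. They compare settings within the clusters only. With an overlap of at least 50% of the peak, found-again shares were 30.6%, 30.4% and 24.8% and new shares 54%, 58.5% and 62.5%. With equal numbers of the strongest autosomal peaks, the number ratio was 0.883 for ΔLINC00641 and turned to 1.13 for ΔLINC00662, with 47% found again in ΔLINC00641 and new shares of 46.3% (ΔLINC00641) and 62.7% (ΔLINC00662). With genes joined within 100 kb the H3K9me3 covered ratio was 1.07. With 500 kb the H3K27me3 density ratio was 2.63, the H3K9me3 density and covered ratios 1.6 and 1.6, found-again shares 45.5%, 47.4% and 46.2%, and the ΔLINC00662 new share 45.8%. With clusters of symbols lacking a pseudogene suffix, the H3K27me3 density and covered ratios were 3.16 and 2.52 and those of H3K9me3 1.05 and 0.935, the latter turned below 1. Without the OR4A11P to OR5BP1P cluster the H3K9me3 ratios were 1.4 and 1.3. Without chromosome 11 the H3K27me3 ratios were 2.3 and 1.99, the H3K9me3 ratios 1.74 and 1.66, the ΔSETD5-AS1 found-again share 48% and the ΔLINC00662 new share 45.2%. With peaks within 1 kb merged the H3K27me3 density ratio was 3.55. Membership by summit and leaving out peaks over 5 times the genome-wide input moved no value beyond its interval.

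No paired analysis was possible because peaks were called once per group, on its 3 replicates merged, and leaving out a replicate was not run for the same reason. The spread between replicates is therefore unknown, and every difference between lists is between single measurements. Cluster peaks had a median of 16 to 21 fragments at the summit across the 5 lists, and the lowest number was 11 or 12. Weak peaks lie near the calling threshold, so presence or absence in a list is not presence or absence of the mark. Reads that align to several near-identical OR copies cannot be placed with certainty.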
